A study of Mus musculus with 3 samples.

Results

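The endothelial cells of the mouse medial vestibular nucleus (MVN) were taken from a single-cell experiment on unilateral labyrinthectomy (UL), the surgical removal of the inner ear's balance organ on 1 side. A barcode counted as an endothelial cell when it held at least 200 genes and at least 1 unique molecular identifier (UMI, a count of captured RNA molecules) of 3 or more of Cldn5, Flt1, Pecam1, Ly6c1, Itm2a and Slco1a4, with fewer than 2 of the pericyte genes Kcnj8, Atp13a5, Abcc9 and Higd1b and fewer than 2 of the muscle genes Acta2, Myh11, Myl9 and Mylk. By this rule 411 of 13964 cells were endothelial: 105 from the MVN on the operated side (ULI), 145 from the opposite MVN of the same animals (ULC) and 161 from control. C57BL/6 mice (C57BL/6J in the study's methods) were operated on the right ear at postnatal day 20 under pentobarbital, and tissue was taken 1 day later. The operation opened the bulla, coagulated the stapedial artery and destroyed the end organs, whereas in control mice the bulla alone was opened. The ULI and ULC libraries pooled the 2 sides of 11 mice, and the control library pooled 10 mice. The treatment field names labyrinthectomy for all 3 samples, so that control rests on its source name and on the study's methods. The sources disagree on the capture platform (10X, Drop-seq or BD Rhapsody), and since each condition is 1 library, nothing could be tested over replicates and no difference between libraries can be told apart from a difference between conditions.

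Endothelial cells line every vessel, and in the brain their tight junctions, transporters and low rate of vesicle transport form the blood-brain barrier. Their genes change along the vessel: capillary cells carry most of the nutrient transporters, venous cells hold the adhesion molecules and chemokine-binding proteins through which leukocytes leave the blood, and arterial cells hold elastic matrix and Notch genes. Signals such as interleukin-1 and tumour necrosis factor switch on adhesion and cytokine genes, above all in venous cells. VEGF receptors, Wnt/beta-catenin and Notch signalling keep the vessels and their barrier in place.

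The endothelial cells held 312506 UMIs in ULI, 506837 in ULC and 814193 in control, and the median cell had 2228, 2200 and 4241 UMIs from 927, 950 and 1613 genes, so that control cells were the deepest. Levels below are UMIs of a gene per 1000000 UMIs of a library's endothelial cells (CPM), and differences are log2 ratios of CPM. The values in parentheses are exact 95% intervals, Poisson for levels and binomial for ratios and shares, and they cover counting error only, not the variation between cells or mice. A gene was called higher or lower, if both libraries summed to 20 UMIs or more, when it differed at least 2-fold and its interval excluded 0. No 2 barcodes had identical counts, but barcodes are named by serial number, so that barcodes shared between libraries could not be counted.

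Choroid plexus RNA differed between the libraries and was highest in ULC. The 12 genes of the plexus epithelium list, led by the thyroxine carrier Ttr, made up 10963 CPM of endothelial cells in ULI, 40189 in ULC and 375 in control. In all other cells they stood at 15852 CPM in ULI, 56587 in ULC and 6141 in control. In proportion, endothelial cells thus lay nearer to other cells in both ULI and ULC than in control. Of the ULC members 12 held 3 or more of 6 plexus markers, against 1 in ULI and 0 in control. Microglial markers were few, with 2, 3 and 5 cells in ULI, ULC and control holding 3 or more. Oligodendrocyte genes stood at 11581 CPM in ULI, 9871 in ULC and 7442 in control, below the 61009, 45995 and 93051 CPM of all other cells. Perivascular macrophage genes were at or under 13.8 CPM and pericyte genes at or under 211 CPM in each library.

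Endothelial genes that the rule did not use were high in the summed cells of each library, with an exception at the threshold. Adgrl4, an adhesion receptor of vessels, stood at 1338 CPM in ULI, 1580 in ULC and 1452 in control, at least 729 times its level in all other cells of the same library. Abcb1a, the efflux pump P-glycoprotein, stood at 1885 CPM in ULI, 1788 in ULC and 2191 in control, and the transcription factor Sox18 at 342 CPM in ULI, 333 in ULC and 534 in control. Robo4, the angiopoietin receptor Tek, Sox17, Erg and Foxq1 were also among the 20 genes with the highest ratio to other cells. These ratios describe cells chosen by endothelial genes and are no test. In cells with all 6 rule markers (20 in ULI, 79 in ULC and 115 in control), 12 further endothelial markers, Cdh5, Esam and Kdr among them, summed to 13991, 14515 and 13187 CPM. In cells with exactly 3 (16, 16 and 7 cells) they summed to 4642, 607 and 3286 CPM, and in cells with exactly 2, which stayed outside (70, 124 and 44 cells), to 133, 211 and 347 CPM. Cells with 4 or 5 markers (25 and 44 in ULI, 14 and 36 in ULC, 7 and 32 in control) were not summed apart. The 16 ULC cells with 3 markers thus read more like the cells outside the rule, and 150945 CPM of their UMIs were of the 6 plexus markers. In the ULI and control cells with 3 markers these stood at 55012 and 2683 CPM. Results for the main lists are therefore also given for cells with at least 4 markers.

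Levels of the rule genes differed between libraries. Cldn5, the main claudin of the barrier's tight junctions, stood at 749 CPM in ULI, 3473 in ULC and 1864 in control, with log2 ratios to control of -1.32 (-1.52 to -1.12) in ULI and 0.90 (0.80 to 1.0) in ULC, and Pecam1 at 227 CPM in ULI, 1113 in ULC and 818 in control. Itm2a stood at 5504 CPM in ULI, 3725 in ULC and 10090 in control, whereas Flt1, Ly6c1 and Slco1a4 had log2 ratios between -0.60 and 0.19. Cldn5 and Pecam1 are low across the whole ULI library, with log2 ratios to control of -3.88 and -2.44 in all other cells. Whether this kept ULI cells outside the rule was not tested.

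Endothelial cells made up 2.18% (1.79 to 2.63) of cells in ULI, 3.19% (2.70 to 3.74) in ULC and 3.49% (2.98 to 4.07) in control. The ULI share lay below the other 2 shares beyond counting error. The same order was seen when all cells were thinned to 500 UMIs before the rule was applied (1.85%, 2.87% and 3.43%). With plexus cells and microglia taken out of the denominator, the shares were 2.86%, 4.62% and 6.08%, and ULC was highest with at least 2 markers (3.64%, 5.92% and 4.45%) and with at least 500 genes per cell (2.41%, 5.15% and 3.73%). The low Cldn5 and Pecam1 of ULI move with these shares, and their part was not tested.

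Capillary genes were lower on both sides after UL. Of 6889 genes tested between ULI and control, 474 were called higher and 712 lower (17.2% called, 6.88% higher and 10.3% lower). Of 7646 genes tested between ULC and control, 927 were higher and 756 lower (22% called, 12.1% higher and 9.89% lower). Against these shares, 8 of 12 capillary genes were called lower in ULI and 6 of 12 in ULC, and 0 were called higher. Their median log2 ratio was -1.35 in ULI and -1.11 in ULC, against -0.09 and -0.11 over all genes tested. Genes at least 5 times as high in endothelial cells as in other cells of every library, other than capillary and rule genes, had medians of -0.35 and -0.36. Both ratios share the control library, so the 2 sides are given side by side and not as support for each other. With at least 4 markers the capillary medians were -1.19 and -0.79, and with every cell thinned to 1000 UMIs -0.92 and -0.93.

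Cxcl12, a chemokine made by capillary endothelium, stood at 1331 CPM in ULI, 1119 in ULC and 4517 in control, with log2 ratios to control of -1.76 (-1.91 to -1.62) in ULI and -2.01 (-2.14 to -1.89) in ULC. Tfrc, the transferrin receptor that carries iron into the brain, stood at 2038 CPM in ULI, 1602 in ULC and 4963 in control, with log2 ratios to control of -1.28 (-1.41 to -1.16) in ULI and -1.63 (-1.74 to -1.52) in ULC. In both genes the ULI and ULC levels lay close together and well under control. Slc22a8, an organic anion carrier, stood at 435 CPM in ULI, 545 in ULC and 1275 in control, with log2 ratios to control of -1.55 (-1.82 to -1.29) in ULI and -1.23 (-1.42 to -1.03) in ULC. Slc7a1, a carrier of cationic amino acids, had log2 ratios to control of -1.06 (-1.31 to -0.82) in ULI and -1.47 (-1.7 to -1.25) in ULC. The basement membrane gene Hmcn1 had log2 ratios to control of -1.41 (-2.24 to -0.67) in ULI and -1.68 (-2.39 to -1.02) in ULC. Its ratios in all other cells were -5.59 and -3.09, from low levels of 0.0589 CPM in ULI, 0.333 in ULC and 2.84 in control. With at least 4 markers Slc22a8 in ULC (-0.95) and Slc7a1 in ULI (-0.94) were no longer called. On the mm10 assembly Cxcl12 lies at chr6:117168535.0-117181367.0 and Tfrc at chr16:32608920.0-32632794.0.

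The sides differed in other members. Mfsd2a, the lipid carrier that holds back vesicle transport across the barrier, stood at 218 CPM in ULI, 468 in ULC and 606 in control, and its ratio was called in ULI alone (-1.48 (-1.86 to -1.11), against -0.37 (-0.60 to -0.15) in ULC). Spock2, a proteoglycan, stood at 1194 CPM in ULI, 2376 in ULC and 4042 in control, and Car4, the carbonic anhydrase of capillary walls, at 749 CPM in ULI, 1008 in ULC and 1997 in control. Both were called lower in ULI (-1.76 and -1.42), with ratios of -0.77 and -0.99 in ULC. Slc7a5, the large neutral amino acid carrier, showed the opposite order, 1376 CPM in ULI, 487 in ULC and 1550 in control, and was called lower in ULC. The lactate carrier Slc16a1 stood at 3165 CPM in ULI, 2585 in ULC and 5009 in control, under the 2-fold limit on both sides. Itih5 (0.76 in ULI and 0.72 in ULC) and Rgcc (0.14 in ULI and -0.069 in ULC) did not share the direction of the list.

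**Figure D1:**
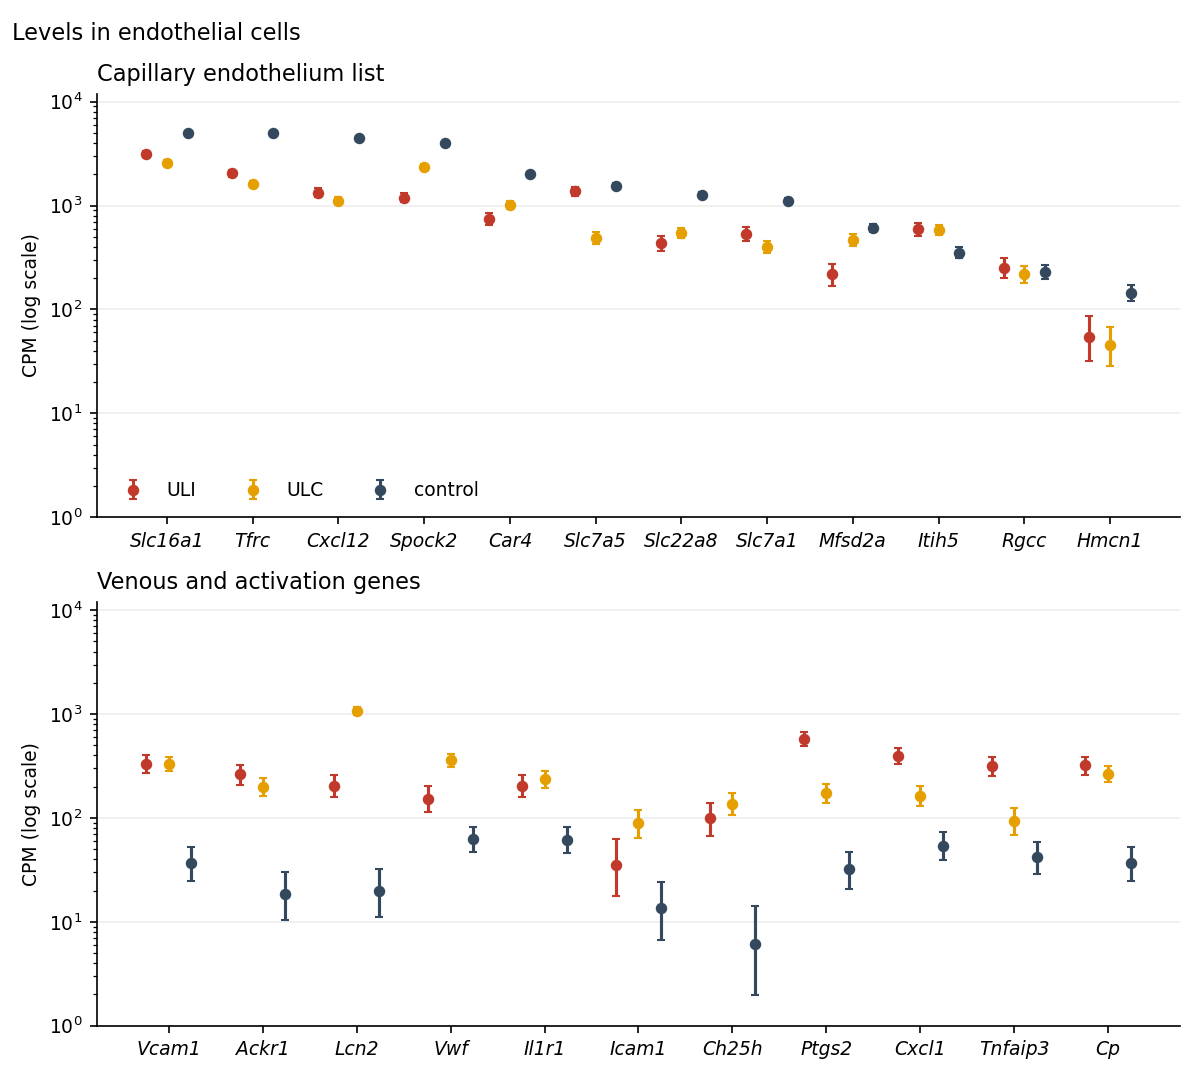
Level of the 12 genes of the capillary list (above) and of 11 selected venous and activation genes (below) in endothelial cells of ULI, ULC and control, in CPM on a log scale. Points are the summed level of a library and bars its exact 95% Poisson interval, which covers counting error only. Most capillary genes sit highest in control, and the 11 selected genes sit lowest in control. Cp is in neither list. Other genes of the 2 lists are not shown, among them Cd34, Nfkbia, Tmsb10, Prcp and the scarce Sele, which are not lowest in control.

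Other barrier lists had medians nearer 0. Of the 24 solute carriers tested, 7 were lower and 0 higher in ULI (median -0.74), and 8 were lower and 3 higher in ULC (median -0.79), a list that shares 5 genes with the capillary list. Of all genes tested, 10.3% were lower and 6.88% higher in ULI, and 9.89% lower and 12.1% higher in ULC. The ULC count of higher carriers (12.5%) thus lay near the share of all genes. The monocarboxylate carrier gene Slc16a4 had log2 ratios to control of -1.1 (-1.55 to -0.67) in ULI and -1.72 (-2.16 to -1.3) in ULC. The thyroid hormone and anion carrier Slco1c1 stood at 2547 CPM in ULI, 2212 in ULC and 3999 in control, and the glucose carrier Slc2a1 at 1680 CPM in ULI, 2733 in ULC and 1566 in control, and Slc2a1 had ratios of 0.10 in ULI and 0.80 in ULC. The glutamine carrier Slc38a5 was called higher in ULC alone (1.65 (1.35 to 1.95)). The efflux pumps Abcb1a (-0.22 in ULI and -0.29 in ULC) and Abcg2 (0.40 in ULI and -0.48 in ULC) were called on neither side.

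Of 15 junction genes tested, 2 were lower on each side, in ULI the rule genes Cldn5 and Pecam1, and 0 higher (medians -0.12 and -0.32), and the junction molecule Esam had ratios of -0.48 in ULI and -0.75 in ULC. Of the Wnt/beta-catenin list, 2 of 20 genes were lower in ULI and 7 of 21 in ULC, with medians of -0.55 and -0.68. Over all genes 10.3% were lower in ULI and 9.89% in ULC, so that the junction counts and the ULI count of the Wnt list lay near the share of all genes. The receptor Fzd6 had ratios of -0.62 in ULI and -1.23 in ULC, the transcription factor Sox17 of 0.12 in ULI and -1.11 in ULC, and the Wnt inhibitor Apcdd1 of -2.18 in ULI and 0.72 in ULC. Of 21 basement membrane and integrin genes, 4 were lower in ULI and 5 in ULC, with Sparc, a collagen-binding protein, at 5369 CPM in ULI, 4871 in ULC and 8066 in control and its relative Sparcl1 at 1357 CPM in ULI, 862 in ULC and 2556 in control.

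Venous and activation genes were higher on both sides. In the activation list 15 of 19 genes tested were called higher and 1 lower in ULI, and 15 of 21 higher and 1 lower in ULC, with medians of 1.57 and 1.63. In the venous list, which shares 7 genes with it, 7 of 13 were higher and 1 lower in ULI (median 1.29) and 9 of 13 higher and 1 lower in ULC (median 1.93). The lower venous genes were Tmsb10 in ULI, which was called higher in ULC, and Prcp in ULC. Among all genes tested, 6.88% were higher and 10.3% lower in ULI, and 12.1% higher and 9.89% lower in ULC. In all other cells the same activation genes had medians of 0.71 and 0.12, and the venous genes of 0.30 and 0.57. With at least 4 markers the activation medians were 1.74 and 2.02, and the venous medians 1.12 and 2.27. The exception in the activation list was Cd34, a sialomucin of capillary and tip cells, at 678 CPM in ULI, 592 in ULC and 1566 in control.

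**Figure D2:**
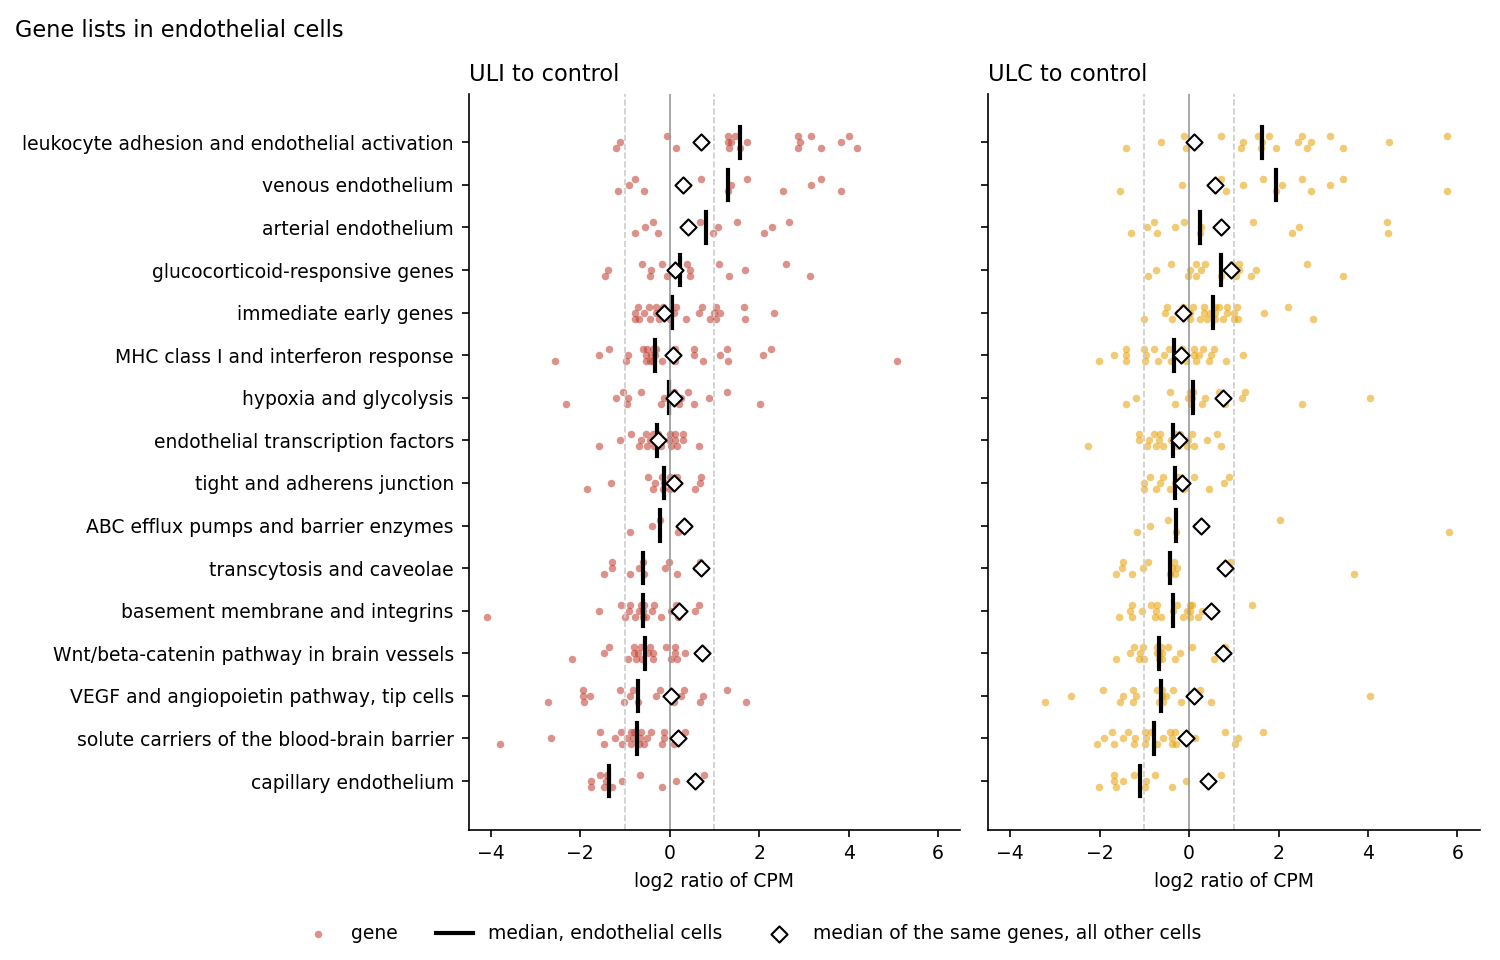
Log2 ratio of CPM to control in endothelial cells of ULI (left) and ULC (right) for the genes of 16 lists, 1 point per gene with at least 20 UMIs. Black bars are the median of a list, open diamonds the median of the same genes in all other cells, and dashed lines mark 2-fold; the activation and venous lists lie to the right of 0 and the capillary list to the left on both sides.

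Vcam1, the adhesion molecule that holds leukocytes on activated veins, was counted with 103 UMIs in 17 ULI cells, 167 in 31 ULC cells and 30 in 8 control cells. Its level was 329.6 CPM in ULI, 329.5 in ULC and 36.9 in control, with log2 ratios to control of 3.16 (2.56 to 3.8) in ULI and 3.16 (2.59 to 3.77) in ULC. After thinning to 1000 UMIs it was found in 10.6% of ULI, 11.7% of ULC and 3.40% of control endothelial cells, and in 3.79%, 5.12% and 1.69% of microglia, whose median depths were 2449, 2774 and 3221 UMIs. Ackr1, the chemokine-binding receptor that marks venules, was counted with 82 UMIs in 9 ULI cells, 101 in 16 ULC cells and 15 in 6 control cells, had log2 ratios to control of 3.83 (3.03 to 4.73) in ULI and 3.44 (2.65 to 4.33) in ULC, and was found in no thinned microglia of the 3 libraries. Both genes were carried by few cells in each library. On the mm10 assembly Vcam1 lies at chr3:116109949.0-116129688.0 and Ackr1 at chr1:173331886.0-173333750.0.

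Lcn2, an iron-siderophore binding protein induced by inflammation, was counted with 64 UMIs in 11 ULI cells, 540 in 37 ULC cells and 16 in 4 control cells. Its level was 205 CPM in ULI, 1065 in ULC and 19.6 in control, with log2 ratios to control of 3.38 (2.57 to 4.27) in ULI and 5.76 (5.05 to 6.58) in ULC, so that ULC lay above ULI. In all other cells Lcn2 was 2.65, 4.08 and 0.0384 CPM, and its ratios there were 6.11 and 6.73. Vwf, the clotting factor stored in larger vessels, stood at 154 CPM in ULI, 361 in ULC and 62.6 in control, with log2 ratios to control of 1.29 (0.69 to 1.89) in ULI and 2.53 (2.07 to 3.0) in ULC, and its ratios in other cells were 2.51 and 4.01. For these 2 genes the ratios of other cells were thus at least as large, from levels far lower.

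The interleukin-1 receptor Il1r1 stood at 205 CPM in ULI, 235 in ULC and 61.4 in control, with log2 ratios to control of 1.74 (1.18 to 2.3) in ULI and 1.94 (1.45 to 2.44) in ULC. Ceruloplasmin, Cp, a copper-binding ferroxidase, stood at 320 CPM in ULI, 266 in ULC and 36.9 in control, with log2 ratios to control of 3.12 (2.52 to 3.76) in ULI and 2.85 (2.27 to 3.48) in ULC. Both genes were called higher on both sides, and Cp is in neither the venous nor the activation list. Icam1, a second adhesion molecule, was scarce, with 11 UMIs in 7 ULI cells, 45 in 15 ULC cells and 11 in 9 control cells. Lrg1, a glycoprotein of activated veins, had 16 UMIs in 5 ULI cells, 19 in 7 ULC cells and 0 in control. Selp had 0 UMIs in endothelial cells of all 3 libraries, and Sele had 1, 4 and 4.

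Of further genes of the activation list, Ptgs2, Ch25h, Cxcl1 and Tnfaip3 were called higher on both sides. Ptgs2, cyclooxygenase-2, stood at 579 CPM in ULI, 174 in ULC and 31.9 in control, with log2 ratios to control of 4.18 (3.58 to 4.83) in ULI and 2.44 (1.8 to 3.13) in ULC. Ch25h, cholesterol 25-hydroxylase, was counted with 31 UMIs in 9 ULI cells, 69 in 22 ULC cells and 5 in 3 control cells, and had log2 ratios to control of 4.01 (2.64 to 5.73) in ULI and 4.47 (3.18 to 6.14) in ULC. The neutrophil chemokine Cxcl1 stood at 394 CPM in ULI, 164 in ULC and 54.0 in control, and its ratios in all other cells were 2.96 and 2.87. The NF-kB inhibitor Tnfaip3 was called on both sides (2.91 in ULI and 1.15 in ULC), with 66 of its 98 ULI UMIs in a single cell. Nfkbia, another NF-kB inhibitor, stood at 640 CPM in ULI, 752 in ULC and 671 in control and was called on neither side. Outside the list, Tnf had 80 UMIs in ULI, 4 in ULC and 3 in control, and the chemokine Ccl3 had 78, 20 and 7, but 78 of the 80 and 74 of the 78 ULI UMIs came from 1 cell each, and without the cell with most UMIs in each library they had log2 ratios of 1.41 and 0.82 and were no longer called. The same step ended the ULI call of Icam1 (1.21) and the ULC call of Tnfaip3 (0.68).

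Promoter sequences (RefSeq, GRCm38.p6) were searched for a site of the factor NF-kB, since the activation list holds many of its known targets. The motif was GGGA followed, after any 2 bases, by TTCC, on both strands, in 250 bases before to 50 after the gene's start. A gene was counted when any of its listed starts had a match. It was found in 1.63% of 27025 genes and in 4 of the 21 genes of the activation list that were in the table (Cxcl1, Cxcl10, Il6 and Nfkbia), but in 1 of the 12 whose genes were called higher. The 250 bases before the start of Cxcl1 (chr5:90890995-90891244, plus strand, with overlapping matches on both strands) and Nfkbia (chr12:55492648-55492897, minus strand) are shown for a gene that was higher and a gene that was not, with the matches in capitals.
Cxcl1: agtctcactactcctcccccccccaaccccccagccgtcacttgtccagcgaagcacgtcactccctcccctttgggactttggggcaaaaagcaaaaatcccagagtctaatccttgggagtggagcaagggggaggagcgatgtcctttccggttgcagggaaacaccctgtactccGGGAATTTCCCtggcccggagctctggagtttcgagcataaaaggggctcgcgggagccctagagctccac
Nfkbia: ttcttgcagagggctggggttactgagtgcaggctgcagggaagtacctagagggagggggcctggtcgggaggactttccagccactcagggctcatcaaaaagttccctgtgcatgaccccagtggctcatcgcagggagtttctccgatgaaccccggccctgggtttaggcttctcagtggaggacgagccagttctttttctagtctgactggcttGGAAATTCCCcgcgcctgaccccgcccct

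The cells that carried the activation genes held fewer capillary transcripts. In cells with a Vcam1 UMI (17 in ULI, 31 in ULC and 8 in control), the 12 capillary genes summed to 8360, 7030 and 13131 CPM, against 12755, 14294 and 26700 CPM in cells without it. Ackr1 was 1379, 491 and 166 CPM in the cells with Vcam1 and 7.86, 9.76 and 7.90 CPM in those without. Lcn2 showed the same split in ULC, with 2402 CPM in cells with Vcam1 and 198 CPM in cells without. A set of 11 genes of larger vessels (Ackr1, Vcam1, Vwf, Lrg1, Icam1, Bmx, Gja4, Gja5, Gkn3, Mgp and Fbln5) was chosen after the data were seen. Cells with any UMI of them made up 40.0% of ULI, 61.4% of ULC and 24.2% of control endothelial cells, and control cells were the deepest. Vcam1, Ackr1, Vwf, Icam1, Bmx, Mgp and Fbln5 were called higher on both sides, so these larger shares follow from those calls and are no separate result. Ackr1, Vcam1, Vwf, Lrg1 and Icam1 are also in the activation list, so the set does not tell the kind of vessel from activation.

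The capillary genes were also compared within each kind of cell. In cells with no UMI of the 11 larger-vessel genes (63, 56 and 122 cells), the capillary genes summed to 14054 CPM (13506 to 14619) in ULI, 16377 (15714 to 17062) in ULC and 28750 (28286 to 29220) in control. In cells with such a UMI (42, 89 and 39 cells) they summed to 9206, 9548 and 20881 CPM. Control was thus highest in both kinds of cell, and the intervals did not overlap those of either side. The median cell without such a UMI held 2055 UMIs in ULI, 1977 in ULC and 3874.5 in control. The median cell with such a UMI held 2723.5, 2367 and 7041 UMIs. Scarce genes are more easily missed in shallow cells, so the split does not hold the kind of vessel fixed between libraries. With the larger-vessel cells left out, the capillary medians were -1.05 and -0.88, the venous medians, by construction without their main genes, 0.072 and 1.27, and the activation medians 1.61 and 0.50.

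**Figure D3:**
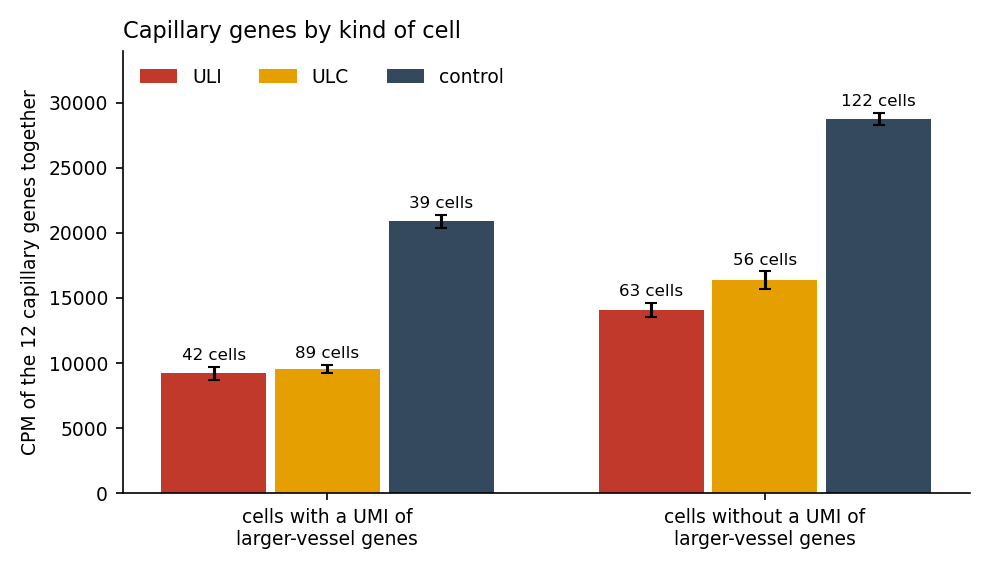
Summed level of the 12 capillary genes, in CPM, in endothelial cells with (left) and without (right) a UMI of 11 larger-vessel genes, for ULI, ULC and control. Bars start at 0, error bars are exact 95% Poisson intervals covering counting error only, and the number of cells stands above each bar; control is highest in both kinds of cell.

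Cell by cell, at a depth of 1000 UMIs (85 ULI, 111 ULC and 147 control cells), the median cell held 14 UMIs of the 12 capillary genes in ULI, 10 in ULC and 28 in control. Fewer than 10 were held by 43.5% of ULI cells, 45.9% of ULC cells and 7.48% of control cells. Cells with exactly 3 rule markers, which in ULC and ULI held much plexus RNA, were not set apart in these shares. Of the 38 venous and activation genes, 10 UMIs or more were held by 12 ULI cells (14.1%), 20 ULC cells (18%) and 5 control cells (3.40%), with a median of 4, 4 and 3. The high levels of the activation genes thus came from a minority of cells, whereas the low capillary levels were spread over many.

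**Figure D4:**
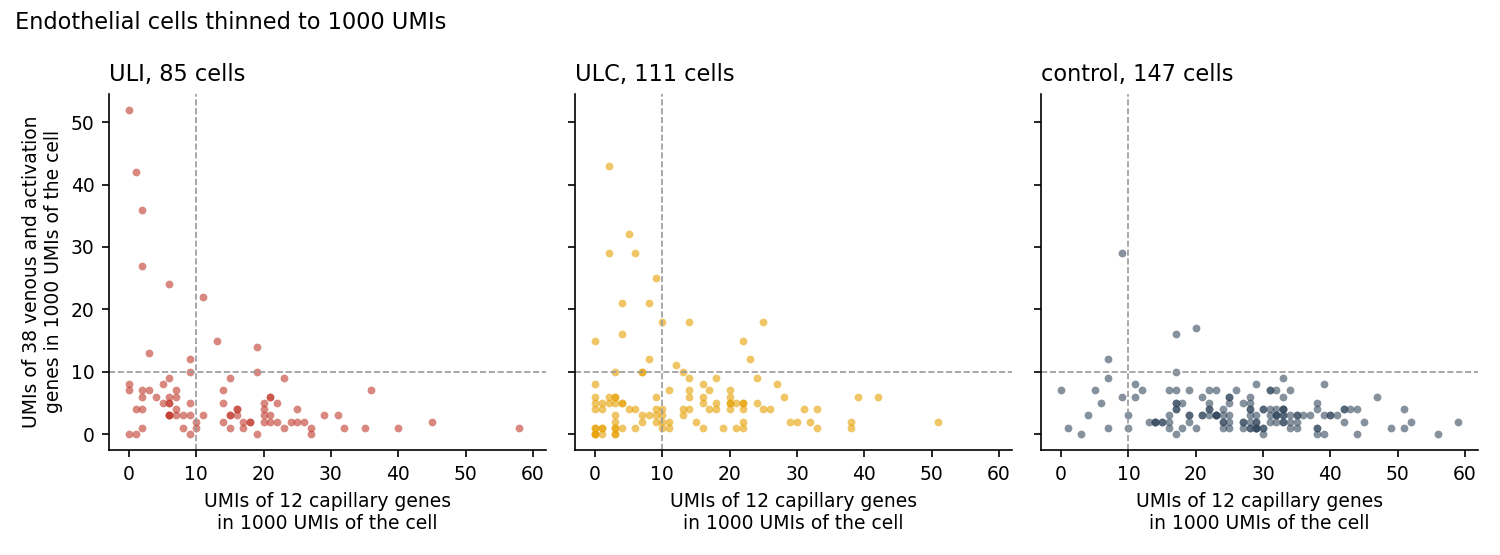
UMIs of 38 venous and activation genes against UMIs of 12 capillary genes in each endothelial cell thinned to 1000 UMIs, for ULI, ULC and control; shallower cells are left out, and dashed lines mark 10 UMIs. Control cells lie mostly right of 10 capillary UMIs, and the 5 ULI and 5 ULC cells with the most venous and activation UMIs lie left of it.

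Arterial genes were mixed, with 5 of 12 tested higher and 0 lower in ULI and 5 of 13 higher and 1 lower in ULC (medians 0.82 and 0.25). Of all genes, 6.88% were higher and 10.3% lower in ULI, and 12.1% higher and 9.89% lower in ULC. With larger-vessel cells left out, by construction without several genes of the list, the medians were -0.84 and -0.66, and with doublets left out the ULI median was -0.13. Mgp, which keeps vessel walls from calcifying, stood at 304 CPM in ULI, 262 in ULC and 47.9 in control, with log2 ratios to control of 2.67 (2.11 to 3.24) in ULI and 2.45 (1.93 to 3.01) in ULC. The elastic fibre gene Fbln5 was counted with 28 UMIs in 9 ULI cells, 46 in 17 ULC cells and 15 in 3 control cells, and the kinase Bmx had ratios of 2.12 in ULI and 1.42 in ULC. Clu was called higher in ULC (4.42 (3.58 to 5.4)) with UMIs in 17 cells, and with at least 4 markers its ratio was 0.79. Plvap, the diaphragm protein of fenestrated vessels such as those of the choroid plexus, had 1 UMI in ULI, 24 UMIs in 6 ULC cells and 0 in control.

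In the VEGF and angiopoietin list 7 of 19 genes were lower and 2 higher in ULI, and 8 of 20 lower and 1 higher in ULC, with medians of -0.71 and -0.63 and with 10.3% and 9.89% of all genes lower. The counts of higher genes (10.5% in ULI and 5% in ULC) lay near or below the 6.88% and 12.1% of all genes. Kdr, the main signalling receptor of VEGF, stood at 1216 CPM in ULI, 945 in ULC and 2619 in control, with log2 ratios to control of -1.11 (-1.27 to -0.95) in ULI and -1.47 (-1.62 to -1.33) in ULC. Tie1, a co-receptor of angiopoietins, stood at 157 CPM in ULI, 186 in ULC and 538 in control, whereas the angiopoietin receptor Tek had ratios of -0.30 in ULI and -0.17 in ULC and the VEGF-binding receptor Flt1, a rule gene, of -0.22 in ULI and -0.60 in ULC. Aplnr, the apelin receptor of venous and sprouting cells, was counted with 7 UMIs in 4 ULI cells, 12 in 9 ULC cells and 121 in 48 control cells, and Cxcr4, the Cxcl12 receptor of tip cells, with 9 UMIs in 5 ULI cells, 6 in 4 ULC cells and 90 in 32 control cells. The guidance receptor Unc5b (-1.95 in ULI and -1.25 in ULC) and the adrenomedullin receptor Calcrl (-1.91 in ULI and -1.26 in ULC) were called lower on both sides. With at least 4 markers the ULI ratio of Kdr was -0.95, under the 2-fold limit. In all other cells Kdr had ratios of -1.16 and -0.75, Tie1 of -2.93 and -0.84 and Aplnr of -3.63 and -1.55. Vegfa had 13 UMIs in ULI, 31 in ULC and 3 in control endothelial cells (41.6 CPM in ULI, 61.2 in ULC and 3.69 in control), below its 153, 177 and 51.0 CPM in all other cells.

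Some genes differed between the sides. Of 6214 genes tested between ULI and ULC, 553 were higher and 910 lower in ULI (23.5% called, 8.9% higher and 14.6% lower). Angpt2, the destabilising angiopoietin, stood at 426 CPM in ULI, 86.8 in ULC and 130.2 in control, with a log2 ratio of ULI to ULC of 2.29 (1.79 to 2.82). Adm, adrenomedullin, stood at 358 CPM in ULI, 65.1 in ULC and 149 in control, with a ratio of 2.46 (1.89 to 3.07), and Apln, the ligand of Aplnr, at 342 CPM in ULI, 84.8 in ULC and 322 in control. Hilpda, a lipid droplet protein induced by hypoxia, stood at 326 CPM in ULI, 41.4 in ULC and 104 in control. These 4 genes were lowest in ULC. Without the ULI cell with most Adm UMIs, 28 of 112, and likewise in control, its ratio of ULI to control was 0.99, under the 2-fold limit.

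Glucocorticoid-responsive genes were partly higher, 5 of 16 higher and 2 lower in ULI and 7 of 19 higher and 0 lower in ULC (medians 0.24 and 0.71), and the medians of the same genes in all other cells were 0.12 and 0.93. The shares of all genes were 6.88% higher and 10.3% lower in ULI, and 12.1% higher and 9.89% lower in ULC. The ULI count of lower genes (12.5%) thus lay near the share of all genes. Fkbp5, a chaperone that dampens the receptor, was counted with 37 UMIs in 18 ULI cells, 62 in 30 ULC cells and 16 in 8 control cells, with log2 ratios to control of 2.59 (1.71 to 3.54) in ULI and 2.64 (1.83 to 3.53) in ULC, and ratios of 1.35 and 0.93 in all other cells. The kinase Sgk1 stood at 845 CPM in ULI, 764 in ULC and 396 in control, the sulfotransferase Sult1a1 at 435 CPM in ULI, 262 in ULC and 135 in control and the kinase Map3k6 at 19.2 CPM in ULI, 53.3 in ULC and 4.91 in control. Without the cell with most Sgk1 UMIs its ULI ratio was 0.93, and the call ended. Errfi1, an inhibitor of growth factor receptors, was called in ULI with a ratio of 3.13 (2.33 to 4.0). The palindrome of the glucocorticoid receptor (G, any base, ACA, any 3 bases, TGT, any base, C), searched as above, was in 0.537% of genes and in 3 of 18 of the list, Map3k6, Mt1 and Sgk1. The promoters of these 3 genes with a palindrome held no match of the NF-kB motif. The 250 bases before 1 of the 6 listed starts of Sgk1, an internal start within the gene's annotated span (chr10:21882184.0-21999903.0) and the only listed start with a match (chr10:21993640-21993889, plus strand), and before the start of Map3k6 (chr4:133240568-133240817, plus strand) are shown with the match in capitals.
Sgk1: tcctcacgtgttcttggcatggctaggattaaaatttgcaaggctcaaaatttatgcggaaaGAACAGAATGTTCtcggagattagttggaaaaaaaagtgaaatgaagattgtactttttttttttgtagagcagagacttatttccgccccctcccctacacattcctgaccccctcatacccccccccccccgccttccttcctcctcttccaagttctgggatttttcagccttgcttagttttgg
Map3k6: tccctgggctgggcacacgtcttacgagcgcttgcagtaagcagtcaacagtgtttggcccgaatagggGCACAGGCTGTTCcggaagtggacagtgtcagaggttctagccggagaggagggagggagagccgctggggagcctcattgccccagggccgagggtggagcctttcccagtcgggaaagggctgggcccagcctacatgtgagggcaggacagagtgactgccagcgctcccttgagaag

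Immediate early genes, which dissociation also induces, were higher in 6 of 26 tested in ULI and in 6 of 28 in ULC, where 1 was lower, against 6.88% and 12.1% of all genes higher. Their medians were 0.058 and 0.52, and with at least 2 markers -0.48 and -0.25. Fosb stood at 48.0 CPM in ULI, 402 in ULC and 59.0 in control and Ier2 at 41.6 CPM in ULI, 227 in ULC and 49.1 in control, both called in ULC alone, and all other cells of ULC showed ratios of 2.29 and 1.97. Of the interferon and MHC class I genes, 6 of 28 were higher and 3 lower in ULI, and 1 of 26 was higher and 6 lower in ULC. Of all genes, 6.88% were higher and 10.3% lower in ULI, and 12.1% higher and 9.89% lower in ULC. The ULI count of lower genes (10.7%) thus lay near the share of all genes, and the ULC count of higher genes (3.85%) below it. Ly6a stood at 5459 CPM in ULI, 3423 in ULC and 2522 in control and Ly6e at 294 CPM in ULI, 2427 in ULC and 1734 in control, and the transcription factor Irf9 had ratios of -1.36 in ULI and -1.02 in ULC. Ifit2 had 26 UMIs in 3 ULI cells, 1 in ULC and 2 in control.

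Among genes outside the lists, Bsg, the glycoprotein basigin that escorts lactate carriers to the membrane, stood at 1146 CPM in ULI, 5378 in ULC and 9178 in control, with log2 ratios to control of -3.0 (-3.16 to -2.85) in ULI and -0.77 (-0.83 to -0.71) in ULC, and ratios of -1.38 and 1.92 in all other cells. Htra3, a serine protease, was counted with 3 UMIs in 2 ULI cells, 4 in 2 ULC cells and 69 in 33 control cells, so that both sides held few UMIs of it. Ptp4a3, a phosphatase, had 1 UMI in ULI, 16 in ULC and 61 in control. Nos2, inducible nitric oxide synthase, had 14, 5 and 67 UMIs, and the cadherin Cdh11 14, 2 and 55, both called lower in ULC alone. Of the 10 highest genes of ULC, all but Ace (20 cells) and Ftl1-ps1 (72 cells) came from 15 or fewer of its 145 cells, among them Igfbp2 (18, 130 and 0 UMIs in ULI, ULC and control, in 7 ULC cells) and 1500015O10Rik (104, 410 and 5 UMIs, in 15 ULC cells). In all other ULC cells Igfbp2 stood at 378 CPM and 1500015O10Rik at 978 CPM, above the 256 and 809 CPM of endothelial cells, and plexus RNA was also highest in ULC.

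Haemoglobin genes were higher in endothelial cells than in other cells of every library. Hba-a1, Hba-a2, Hbb-bs, Hbb-bt and the haem synthesis gene Alas2 summed to 1747 CPM in ULI, 1882 in ULC and 1637 in control, against 3.42, 39.8 and 0.730 CPM in all other cells. Hbb-bs was found in 11 endothelial cells of each library, with 76 of 184 UMIs in ULI, 90 of 386 in ULC and 116 of 541 in control from the cell with most. Its ratios to control were -0.17 in ULI and 0.20 in ULC.

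GC content moved with the ratios. Over the fifth of genes with the lowest and the fifth with the highest GC content, the median log2 ratio was 0.07 and -0.40 for ULI to control, -0.23 and 0.20 for ULC to control, and 0.29 and -0.65 for ULI to ULC, and in all other cells 0.37 and -0.24, 0.08 and 0.42, and 0.32 and -0.58. With each ratio set against the median of genes in the same of 10 bins of GC content, the capillary medians were -1.2 and -1.0 and the activation medians 1.8 and 1.78. The share of calls that were higher in ULI than in control was 40.0% as measured and 52.2% after that step, and Cldn5 was then no longer called (-0.81).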

How the data were processed

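The deposited table holds UMI counts, whole numbers per gene and barcode, for 28676 genes and 14876 barcodes (57216827 UMIs), as deposited by the authors, whose processing notes name CASAVA 1.8, UMI-tools, Seurat and the build mm10. For the aligner, the annotation and cell calling the sources used here give nothing. Barcodes were assigned to libraries by the start of their names, and 912 with fewer than 200 genes were left out. UMIs of the cells that met the rule were summed per library, and each side was compared with control and ULI with ULC, 3 comparisons in all. Cells were not used as replicates. A library with 0 UMIs was set at a floor of 3 counts. The members, the 36 gene lists and the rules were chosen with earlier results of these data known. Named were the rule genes and further markers, the 10 highest and 10 lowest ratios in each comparison, for genes of 50 UMIs or more with an interval that excluded 0, up to 5 genes per list by ratio and 3 by level, and the 20 genes highest against other cells; some names were left out for space, and names beyond these were chosen after their values were seen. Doublets were kept in the main values. As an alternative, those of Scrublet (scanpy 1.11.5) were left out (259 ULI, 239 ULC and 44 control cells, of which 17, 25 and 6 endothelial), with the top 5% of scores taken where under 0.5% were called. The other alternatives were at least 2 or 4 markers, 500 genes, 20% mitochondrial UMIs, cells with 3 microglial or plexus markers left out, thinning, TMM (edgeR 4.0.16) and median-of-ratios (DESeq2 1.42.0) factors, other totals, the mean over cells, the top cell of a gene left out, other minimums of UMIs, and ratios less those of all other cells. Gene positions and GC content came from GENCODE on the same assembly (99.2% of the genes tested matched). Python 3.11.15, numpy 2.4.6, scipy 1.17.1, pandas 2.3.3, matplotlib 3.10.9 and R 4.3.3 were used. The rule for calling genes and its interval were tested on simulated Poisson counts with set folds, which hold no variation between cells. The other steps were not tested in this way.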

Additional observations from a re-analysis of the deposited data

Results flagged for a closer look

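The genes below were called in opposite directions on the 2 sides against control; the difference itself could not be tested with 1 library per side, and the values are log2 ratios of ULI to ULC in endothelial cells. Adm (2.46), Hilpda (2.98), Kcnq1ot1 (2.28) and Omg (2.92) were higher in ULI and lower in ULC than in control. The ratios of Adm and Hilpda in all other cells were -0.17 and 0.81. Ckb (-6.76), Ddit4 (-2.44), Dynlrb1 (-4.39), Ecm1 (-4.61), Lamb2 (-3.00), Rgl2 (-4.97), Slc38a3 (-3.76), Slc9a3r2 (-2.25) and Tmsb10 (-2.36) were lower in ULI and higher in ULC than in control. All other cells had ratios of -2.7 for Ckb, -2.01 for Ddit4, -3.2 for Slc38a3 and -2.47 for Tmsb10.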

How the results depend on the processing

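Intervals cover counting error only, and the variation between mice was not measured. No paired analysis was possible because the labels give 1 library a condition and no replicate numbers. With 105 to 161 cells per library, genes held by few cells rest on those cells. The capillary medians stayed below 0 and the venous and activation medians above 0 on both sides under the 17 alternatives, of which the GC step and the removal of larger-vessel cells were chosen after seeing the data.

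Genes past 2-fold between ULI and control, ULC and control, and ULI and ULC numbered 1186, 1683 and 1463 as reported, 2596, 3317 and 2250 with at least 2 markers, 624, 864 and 629 with at least 50 UMIs and 339, 437 and 343 thinned to 1000 UMIs. With no minimum of UMIs ULC to control had 2622. With larger-vessel cells left out ULC to control had 993 and ULI to ULC 792, and less the ratio in all other cells ULI to ULC had 811. With at least 2 markers the capillary medians were -1.99 in ULI and -1.89 in ULC, and the venous, activation and glucocorticoid medians were 0.56, 1.01 and -0.32 in ULI and, in ULC, 0.73, 1.05 and -0.14. Thinning gave capillary medians of -0.92 and -0.93 and a venous median of 1.94 in ULI. The ULC capillary median was -0.79 with at least 4 markers, -0.84 as the mean over cells, -0.91 without cells with 3 microglial or plexus markers and -0.88 without larger-vessel cells. That last step gave venous medians of 0.072 in ULI and 1.27 in ULC and an activation median of 0.50 in ULC. After subtraction of the other-cell ratio, the ULC medians were -1.53 for capillary, 0.62 for venous (0.57 in ULI), -0.18 for glucocorticoid and 0.021 for junction genes. Genes whose log2 ratio changed sign under that subtraction were, in ULI to control, Aplnr 0.90, Angpt2 -0.77, Cldn5 2.56, Cxcl1 -0.093, Hmcn1 4.18, Kdr 0.054, Lcn2 -2.73, Ly6e 0.16, Pecam1 0.59, Sgk1 -0.45, Tie1 1.15 and Vwf -1.22, in ULC to control, Cxcl1 -1.27, Fbln5 -0.11, Hmcn1 1.42, Lcn2 -0.97 and Vwf -1.48, and in ULI to ULC, Slc9a3r2 0.61 and Tmsb10 0.11; the cause was not tested. Shares of endothelial cells in ULI, ULC and control were 3.64%, 5.92% and 4.45% with at least 2 markers, and 2.86%, 4.62% and 6.08% without plexus cells and microglia, and 2.41%, 5.15% and 3.73% with at least 500 genes, so that ULC rather than control was highest with at least 2 markers or 500 genes.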
